A study of Mus musculus with 14 samples.

Results

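The interferon-stimulated genes described here are 46 genes whose transcription rises when cells sense interferon, taken by symbol from the gene tables of the spleen and ovary. All 46 were found among the 49315 genes of the spleen count table and 45 among the 18603 genes of the ovary table, where Mx1 is not listed. They fall into 14 groups by role, from the RNA-binding Ifit proteins to the immunity-related GTPases. All 46 passed the filter on low counts in the spleen and all 45 listed in the ovary passed the filter there.

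The libraries were poly(A) RNA-seq of tissues from mouse pups with a full-body deletion of Zfp36l2, called L2-fKO (L2-cKO in the sample labels), and from wild-type littermates. L2-fKO animals carried 2 recombined Zfp36l2 alleles, cut between loxP sites by Cre from a CMV promoter that acts early in the embryo and in all tissues, so the deletion was not limited to any cell type. Wild-type controls had both intact copies and carried the same CMV-Cre transgene. The spleen set held 4 wild-type libraries (2 female, 2 male) and 4 L2-fKO libraries (1 female, 3 male), and the ovary set held 3 of each. Each library came from 1 animal, and 1 L2-fKO animal gave both L2-fKO spleen 3 and L2-fKO ovary 1. The spleens were described by the study as age-matched pairs. The study places the spleen pups in the first days after birth and calls the ovary animals age-matched. The age of each single animal is not given in the sources used here, and the labels call the spleen samples Spleen Organoid. Spleen libraries held 39138010 to 45167464 counts, and the ovary table held 31052510 to 44270070 recovered reads per library. Normalized counts of Zfp36l2 were 4404 to 7272 in wild-type and 282 to 396 in L2-fKO spleens, and 4745 to 4906 in wild-type and 758 to 1011 in L2-fKO ovaries.

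Interferons of type I and type II bind separate cell surface receptors and act through JAK kinases. Type I signals act through a complex with STAT2 and IRF9 that binds the interferon-stimulated response element (ISRE), and type II signals act at gamma-activated sites. The induced proteins sense viral RNA, degrade it, block translation, tag proteins or attack pathogen vacuoles, and spleen macrophages, dendritic cells and lymphocytes keep a basal level of them without infection. ZFP36L2 is an RNA-binding protein that recognises AU-rich elements in 3′UTRs and promotes decay of the bound mRNA.

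The promoters were searched for the elements through which interferon acts. A RefSeq promoter window of 300 bases, from 250 before to 50 after the start (GRCm38.p6), was given for 35 of the 46 members. The core of the ISRE, GAAA followed after 2 bases of any kind by a second GAAA, was searched on both strands and stood in a window of 21 of these 35 members (60%), against 3.99% of all 27025 genes with a window. The letters TTCNNNGAA, the core of a gamma-activated site, stood in 10 of the 35 (28.6%), against 9.55% of all genes. Matches of both motifs were counted separately where they overlapped. The matches printed here are from the 8 members with the smallest spleen p-values among those with a match, 1 per gene, written 5′ to 3′ on the gene's strand with the 10 matched bases in capitals, where TTTC at the start marks a match on the opposite strand. For Gbp7, Irgm2 and Ifit3 the first 30 transcribed bases of the RefSeq window were not found in a GENCODE transcript of the gene.
Gbp7, chr3:142530273-142530302 (+ strand): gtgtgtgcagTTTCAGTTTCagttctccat
Gbp2, chr3:142620594-142620623 (+ strand): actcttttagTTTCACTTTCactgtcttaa
Irgm2, chr11:58214903-58214932 (+ strand): tccaggaactGAAACTGAAAgctgttcggg
Gbp3, chr3:142559989-142560018 (+ strand): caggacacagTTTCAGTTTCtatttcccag
Slfn5, chr11:82951937-82951966 (+ strand): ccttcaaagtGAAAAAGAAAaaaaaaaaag
Ifit3, chr19:34583363-34583392 (+ strand): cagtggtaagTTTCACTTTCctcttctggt
Igtp, chr11:58199512-58199541 (+ strand): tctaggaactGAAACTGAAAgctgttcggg
Isg15, chr4:156200877-156200906 (- strand): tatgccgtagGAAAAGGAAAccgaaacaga

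Before any comparison of genotypes, 1 spleen library, L2-fKO spleen 4, stood apart in these genes. Its departure was not limited to them. Over all genes tested it was the lowest of the 8 libraries for 24.6%, the largest such share, against 18.3% for L2-fKO spleen 3. L2-fKO spleen 4 was the highest of the 4 L2-fKO libraries for all 46 members, against 39.2% of all genes tested. It was the highest of all 8 libraries for 37 members, against 20.7% of all genes tested. Relative to the wild-type mean, the median member stood at 1.09 on the log2 scale in L2-fKO spleen 4, at -0.24, -0.37 and -0.32 in the other 3 L2-fKO spleens, and at 0.66, -0.12, -0.40 and -0.18 in wild-type spleens 1 to 4. Wild-type spleen 1 was thus the highest of its group as well, for 43 of 46 members against 26.7% of all genes. Within a genotype the members spread widely: the highest wild-type spleen library was a median of 2.28 times the lowest over the members and 1.46 times over all genes, and in the L2-fKO spleens the medians were 3.25 and 1.53 times. In the ovary the same ratios for the members were 1.25 times in wild-type and 1.27 times in L2-fKO libraries. Because of this spread the counts, medians and calls of the members in the spleen are given with all 8 libraries and without L2-fKO spleen 4. That library was picked because these members were high in it, so leaving it out lowers their fold changes by construction. The calls without it are descriptive and no independent test. With wild-type spleen 1 left out instead, the members' median log2 fold change was 0.37. In that fit 1 member was called higher and 1 lower (edgeR), against 6.14% and 5.45% of all genes.

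**Figure D1:**
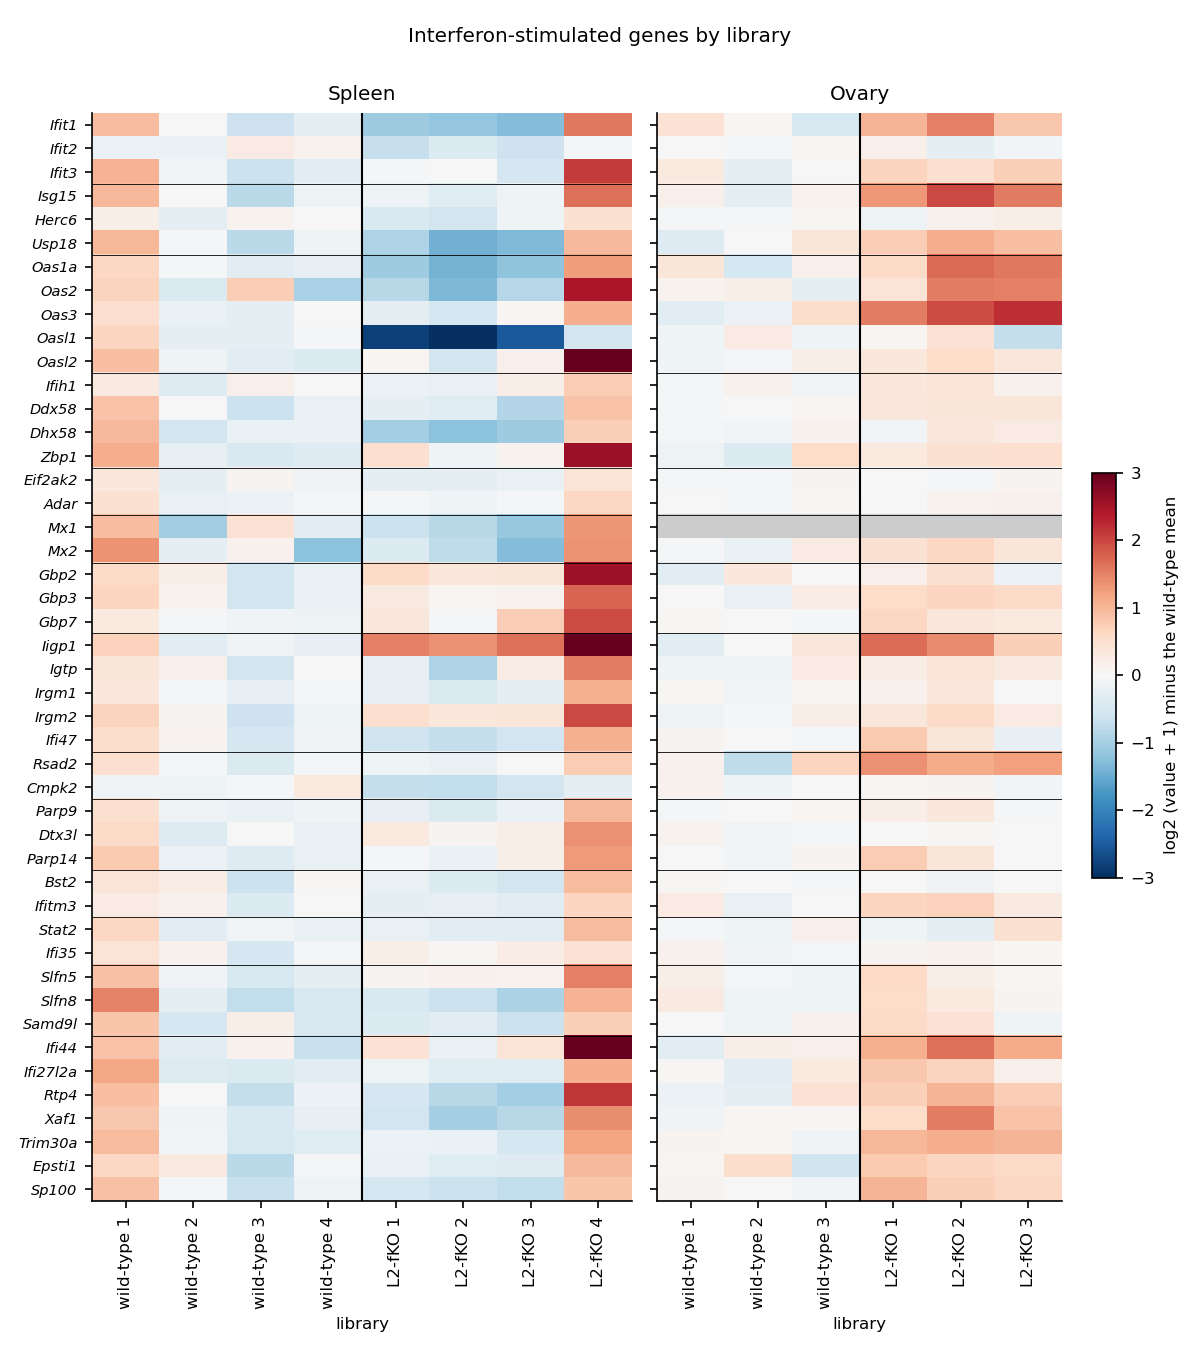
Rows are the 46 genes in their role groups and columns are the libraries of the spleen (left) and ovary (right), with colour giving log2 of the normalized count plus 1 minus the wild-type mean of that tissue. Colour saturates at 3 in either direction and Mx1 is grey in the ovary, where it is not listed; L2-fKO spleen 4 is the column with the highest median, 1.09.

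Over all 8 spleens few members differed by genotype. One member rose in the L2-fKO spleen, Iigp1, and 1 fell, Cmpk2 (edgeR, adjusted p below 0.05), against 6.89% of all 16911 genes tested that rose and 6.51% that fell. The median log2 fold change of the members was 0.10 and that of all genes -0.02, and 30 of 46 members had a positive fold change, against 47.8% of all genes. By an unadjusted p under 0.05, 3 members were higher and 3 lower, against 14.4% and 14.6% of all genes. One member had every L2-fKO library above every wild-type library (10.3% of all genes) and 2 had every L2-fKO library below (9.73% of all genes). Without L2-fKO spleen 4 the median was -0.38, and 38 of 46 members had a negative and 8 a positive fold change, where 46.3% of the 17123 genes then tested were positive. In that fit 1 member rose and 8 fell, against 9.02% and 9.16% of those genes. In bulk tissue fewer cells of a type and less RNA per cell cannot be told apart.

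**Figure D2:**
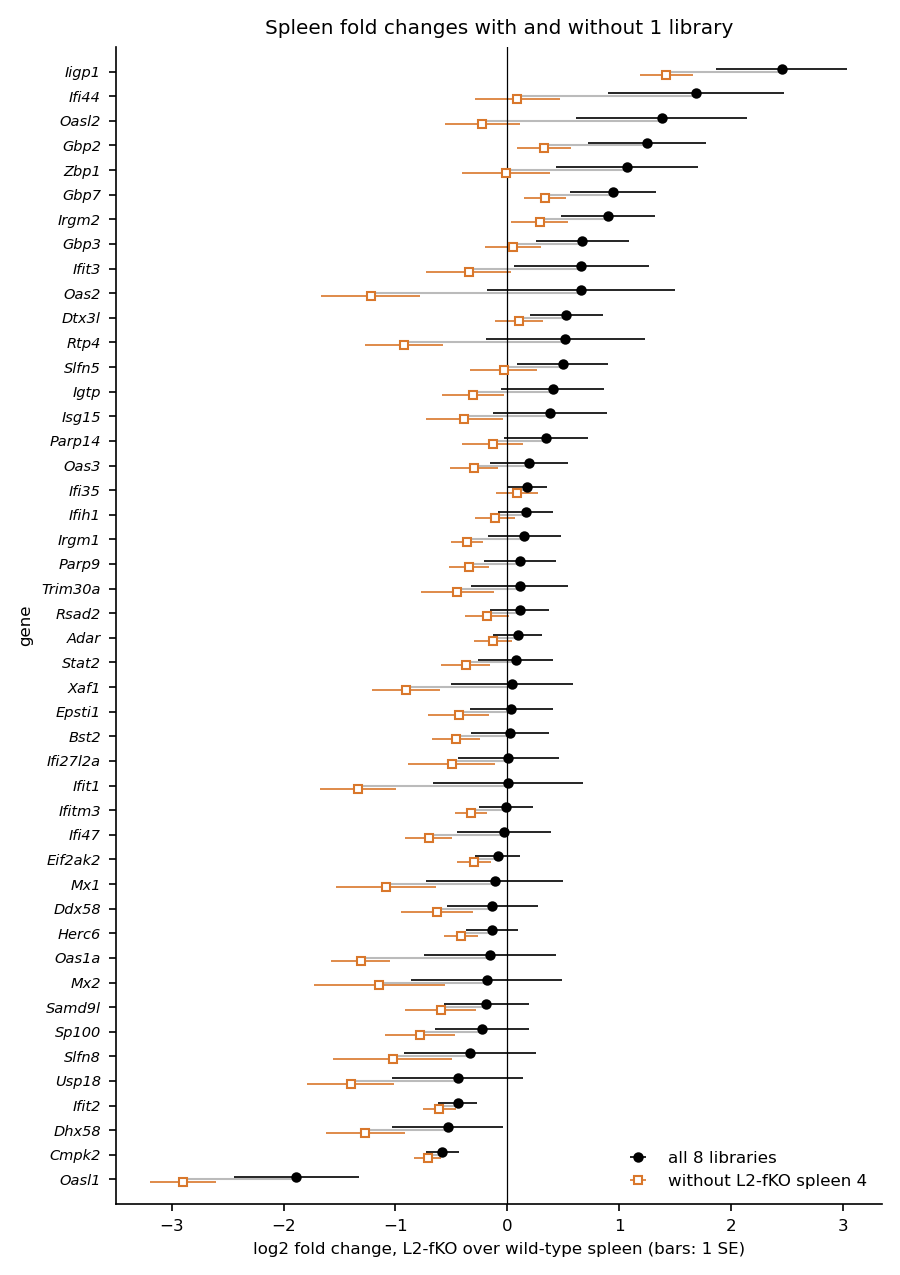
Each row is 1 gene, with the log2 fold change of L2-fKO over wild-type spleen from all 8 libraries (black circles) and from 7 libraries without L2-fKO spleen 4 (open orange squares), and bars of 1 SE. All 46 squares lie to the left of their circles, and the median moves from 0.10 to -0.38.

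The immunity-related GTPases, which attack the vacuoles of intracellular pathogens, held the member that rose. Iigp1 gave normalized counts of 848, 425, 487 and 442 in wild-type spleens 1 to 4 and 1499, 1369, 1659 and 7515 in L2-fKO spleens 1 to 4. All 4 L2-fKO libraries exceeded all 4 wild-type libraries, with L2-fKO spleen 4 far above the other 3. The log2 fold change 2.45 ± 0.58 (SE, edgeR adjusted p = 0.0229) compared means of 550.3 ± 199.9 (SD, n = 4) and 3010.4 ± 3005 (SD, n = 4), and without L2-fKO spleen 4 it was 1.42 ± 0.24 (SE, edgeR adjusted p = 0.00529). The call was lost without wild-type spleen 2 (edgeR adjusted p = 0.0756) or wild-type spleen 4 (edgeR adjusted p = 0.0752). Irgm1, a regulator of its relatives with the highest mean count of the group over the 8 spleens, not corrected for length, gave 3106, 2359, 2095 and 2416 in wild-type and 2093, 1826, 2033 and 5174 in L2-fKO spleens, which overlapped. With all libraries the log2 fold change was 0.15, and it was -0.36 ± 0.14 (SE, edgeR adjusted p = 0.107) without L2-fKO spleen 4. Ifi47 gave 2406, 1811, 1182 and 1552 in wild-type and 1113, 1020.3, 1135 and 3542 in L2-fKO spleens. Its log2 fold change -0.03 ± 0.42 (SE, edgeR adjusted p = 0.973) became -0.70 ± 0.21 (SE, edgeR adjusted p = 0.0496) without L2-fKO spleen 4, a call that rests on leaving that library out. Igtp and Irgm2 overlap on the same strand of chromosome 11, so their reads may have been split, and neither passed the test in either fit.

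The viperin locus held the member that fell. Cmpk2 encodes a mitochondrial nucleotide kinase and gave 4269, 4249, 4395 and 5683 in wild-type and 2796, 2766, 3128 and 3835 in L2-fKO spleens. The groups did not overlap, and L2-fKO spleen 4 was here the highest of its group but still below every wild-type library. The log2 fold change -0.58 ± 0.15 (SE, edgeR adjusted p = 0.0296) became -0.71 ± 0.12 (SE, edgeR adjusted p = 0.00549) without L2-fKO spleen 4. The call was lost without wild-type spleen 2 (edgeR adjusted p = 0.0508) or 4 (0.0905) and without L2-fKO spleen 1 (0.0955), 2 (0.0911) or 3 (0.0626). Rsad2, its neighbour on chromosome 12, encodes viperin, which makes a chain-terminating nucleotide, and gave 30242, 20800.05, 15719 and 20931 in wild-type and 19595, 18505, 21139.7 and 36093 in L2-fKO spleens. Those groups overlapped and the log2 fold change 0.11 ± 0.26 (SE, edgeR adjusted p = 0.819) did not pass the test, nor did -0.18 ± 0.20 (SE, edgeR adjusted p = 0.552) without L2-fKO spleen 4.

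The oligoadenylate synthetases, which make the messenger that activates RNase L, differed among themselves. Oasl1, a catalytically inactive relative that restrains translation of Irf7, gave 731, 388, 381 and 451 in wild-type and 66.8, 52.99, 80.98 and 322 in L2-fKO spleens. Every L2-fKO library was below every wild-type library, and L2-fKO spleen 4 was the closest to them. The log2 fold change -1.88 ± 0.56 (SE, edgeR adjusted p = 0.0515) missed the limit, and without L2-fKO spleen 4 it was -2.90 ± 0.29 (SE, edgeR adjusted p = 0.000494). With all 8 libraries Oasl1 was called lower by DESeq2 (adjusted p = 0.00221). In edgeR it was called with RLE size factors (adjusted p = 0.0485), every gene with at least 1 count (0.00385) or a replicate block (0.0352). It was not called with sex as a covariate (edgeR adjusted p = 0.0896), at least 10 counts in all 8 libraries (0.0539) or males alone (0.206). Nor was it called when any 1 library other than L2-fKO spleen 4 was left out (edgeR adjusted p from 0.0564 to 0.133). Oas1a gave 359, 223, 186 and 198 in wild-type and 110.2, 86.8, 101 and 562 in L2-fKO spleens, the highest value being that of L2-fKO spleen 4. Its log2 fold change -0.16 ± 0.59 (SE, edgeR adjusted p = 0.891) became -1.31 ± 0.26 (SE, edgeR adjusted p = 0.0111) without that library. Oas3, the member of the group with the highest normalized count, gave 2637, 1599.7, 1500.3 and 1851 in wild-type and 1539.9, 1279.7, 1918 and 3965 in L2-fKO spleens, which overlapped. For Oas3 the log2 fold change was 0.19, and -0.30 without L2-fKO spleen 4. In Oas2 and Oasl2 the log2 fold changes were 0.66 and 1.38, and -1.22 and -0.22 without L2-fKO spleen 4, none past the test.

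Among the Ifit proteins, which bind viral RNA with unusual 5′ ends, Ifit2 gave 901, 884, 1197 and 1093 in wild-type and 627, 764, 658 and 973 in L2-fKO spleens. The log2 fold change -0.45 ± 0.18 (SE, edgeR adjusted p = 0.129) became -0.61 ± 0.15 (SE, edgeR adjusted p = 0.0227) without L2-fKO spleen 4. Ifit1 gave 1105, 583, 380.2 and 479.5 in wild-type and 278, 262, 236 and 1761 in L2-fKO spleens. The 3 L2-fKO libraries other than 4 were all below the wild-type libraries, while the fourth was above them, and the log2 fold change of 0.00 became -1.33 ± 0.34 (SE, edgeR adjusted p = 0.0286) without it. Ifit3 has a near-identical copy, so its count is uncertain, and it did not pass the test.

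The ISG15 system tags proteins with a ubiquitin-like modifier. Isg15 gave 9102, 4633, 2684 and 4189 in wild-type and 4211, 3608, 4291 and 14729 in L2-fKO spleens, which overlapped. Its log2 fold change 0.38 ± 0.51 (SE, edgeR adjusted p = 0.662) turned to -0.38 ± 0.34 (SE, edgeR adjusted p = 0.465) without L2-fKO spleen 4. Usp18, the protease that removes the tag and damps the type I receptor, gave 851, 406, 241 and 391 in wild-type and 222, 157, 169.7 and 832 in L2-fKO spleens. Its log2 fold change -0.45 ± 0.58 (SE, edgeR adjusted p = 0.653) became -1.40 ± 0.39 (SE, edgeR adjusted p = 0.0385) without L2-fKO spleen 4. Herc6, the ligase, did not pass the test in either fit.

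The cytosolic sensors of viral nucleic acid held 1 member past the test without L2-fKO spleen 4. Dhx58, which encodes LGP2, a regulator of the RNA sensors, gave 1189, 406, 525 and 527 in wild-type and 299.9, 256, 288 and 988 in L2-fKO spleens. Its log2 fold change -0.53 ± 0.499 (SE, edgeR adjusted p = 0.517) became -1.27 ± 0.35 (SE, edgeR adjusted p = 0.0383) without L2-fKO spleen 4. Ifih1, which encodes the sensor MDA5, gave 1587, 1008, 1459.7 and 1305 in wild-type and 1161, 1131, 1518 and 2247 in L2-fKO spleens, and these overlapped. The Ifih1 log2 fold change of 0.16 turned to -0.11 without L2-fKO spleen 4. Ddx58, which encodes RIG-I, and Zbp1 passed the test in neither fit.

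The guanylate-binding proteins, GTPases induced mainly by interferon gamma, kept positive fold changes in both fits. Gbp7 gave 2174, 1745, 1641 and 1607 in wild-type and 2235, 1732, 2979.6 and 6862 in L2-fKO spleens. L2-fKO spleens 1, 3 and 4 were above every wild-type library and L2-fKO spleen 2 was not, and the log2 fold change 0.94 ± 0.39 (SE, edgeR adjusted p = 0.137) did not pass the test. The group's median log2 fold change was 0.94, and 0.33 without L2-fKO spleen 4; Gbp2 and Gbp3 had 1.25 and 0.67 with all libraries and 0.33 and 0.05 without it, none past the test.

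The other groups held no member past the test in either fit. Adar, which edits double-stranded RNA, gave 3688, 2302, 2376 and 2554 in wild-type and 2624, 2449, 2574 and 4099 in L2-fKO spleens. Mx1, a dynamin-like GTPase against influenza viruses, gave 142, 35.9, 101 and 60.2 and 47.7, 41.7, 33.3 and 189 in the same order. Parp9, an ADP-ribosyltransferase partner of Dtx3l, gave 2824, 1834, 1770.2 and 1857 in wild-type and 1715, 1503, 1780.4 and 4004 in L2-fKO spleens. In these 3 genes L2-fKO spleen 4 was the highest library and the genotypes overlapped. Ifitm3, which blocks fusion of viruses with endosomes, gave 5275, 4880.02, 3334 and 4488 in wild-type and 3669, 3710.4, 3572 and 6947 in L2-fKO spleens. Ifi35, a signalling modifier, gave 2291, 1891, 1223 and 1689.6 and 1951, 1779, 2032 and 2331. Samd9l, a translation repressor, gave 2570.1, 997, 1629 and 1037 and 1084, 1159, 928 and 2354. Each again overlapped between genotypes. Sp100, a nuclear body protein with multicopy relatives in the mouse, gave 7734, 3986, 2624 and 3766 in wild-type and 2888, 2661, 2516 and 7469 in L2-fKO spleens. Trim30a, a ubiquitin ligase with close paralogs, gave 2435, 1203, 903 and 983 and 1118, 1109, 881 and 2887, also overlapping. The log2 fold changes of these 8 genes ran from -0.23 (Sp100) to 0.18 (Ifi35), and from -1.09 (Mx1) to 0.09 (Ifi35) without L2-fKO spleen 4. Those of Adar, Parp9 and Trim30a turned from 0.09, 0.11 and 0.11 to -0.13, -0.35 and -0.45. The remaining members outside the groups above, Eif2ak2, Mx2, Dtx3l, Parp14, Bst2, Stat2, Slfn5, Slfn8, Ifi44, Ifi27l2a, Rtp4, Xaf1 and Epsti1, had log2 fold changes from -0.34 (Slfn8) to 1.69 (Ifi44), and from -1.14 (Mx2) to 0.11 (Dtx3l) without L2-fKO spleen 4.

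Marker sums of some other cells were highest in the libraries that stood apart, and those of others were not. The macrophage sum of wild-type spleen 1, 62499, and the neutrophil sum of L2-fKO spleen 4, 44689, lay within the ranges of their groups. The summed normalized count of 9 macrophage markers was 115076 in L2-fKO spleen 4, 67076 to 74205 in the other L2-fKO spleens and 37826 to 71678 in wild-type spleens, and 2 of 9 rose in the L2-fKO group. The 6 B cell markers summed to 66409 in wild-type spleen 1, and to 12672 to 30998 in the other wild-type spleens and 14365 to 34655 in the L2-fKO spleens. The 7 plasmacytoid dendritic cell markers summed to 22622 in wild-type spleen 1 and 18944 in L2-fKO spleen 4, against 9585 to 15352 in the other wild-type and 9596 to 13077 in the other L2-fKO spleens. All 8 neutrophil markers fell in the L2-fKO spleens, with sums of 10710.2 to 60948 against 161133 to 258040.1, as did all 6 megakaryocyte markers and 4 of 6 monocyte markers. The 6 NK cell markers summed to 1156 in L2-fKO spleen 4 and 1171 in wild-type spleen 1, against 269.6 to 319 in the other L2-fKO and 465 to 836 in the other wild-type spleens. The 7 erythroid markers were lowest in L2-fKO spleen 4, at 378196 against 600194 to 802770.1 in the other L2-fKO and 404504 to 481318 in wild-type spleens, and 0 of 7 passed the test (edgeR). The 6 markers of splenic stroma and endothelium summed to 42200.3 in L2-fKO spleen 4, 31815 to 32699 in the other L2-fKO and 22125 to 26337 in wild-type spleens, and 3 of 6 rose. The 7 T cell markers summed to 3604 to 9699.8 in wild-type and 4742 to 9699 in L2-fKO spleens, and the 7 of conventional dendritic cells to 2565 to 3578 and 2476 to 3702, both highest in wild-type spleen 1 and L2-fKO spleen 4 of their group. Their part in the results above was not tested.

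In the ovary 42 of 45 members had a positive fold change, where 49.3% of all 18504 genes tested were positive. Every L2-fKO ovary was above every wild-type ovary for 23 of 45 members, against 13.2% of all genes, and no member had the reverse order (12.0% of all genes). The test was passed by 3 members, all higher in the L2-fKO ovary, Trim30a, Isg15 and Oas3, against 1.23% of all genes that rose and 0.351% that fell, and at an unadjusted p under 0.05 22 members were higher and 0 lower, against 9.88% and 6.95% of all genes. The median log2 fold change was 0.39 over the members and 0.00 over all genes. With DESeq2 on the recovered reads, 14 members rose, against 4.38% of all genes.

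Trim30a gave normalized counts of 488, 471 and 429 in wild-type ovaries 1 to 3 and 917, 982 and 943 in L2-fKO ovaries 1 to 3. The 2 groups were narrow and far apart, at means of 463 ± 30.2 (SD, n = 3) and 947 ± 33.1 (SD, n = 3), and the log2 fold change 1.03 ± 0.09 (SE, limma adjusted p = 0.0045) passed the test whichever library was left out. Isg15 gave 46.2, 34.3 and 44.04 in wild-type and 104, 165 and 123 in L2-fKO ovaries. No L2-fKO value lay within the wild-type range, and the log2 fold change 1.62 ± 0.25 (SE, limma adjusted p = 0.0266) lost the call without any 1 wild-type ovary (limma adjusted p = 0.1, 0.133 and 0.116) or without L2-fKO ovary 3 (0.0668). Oas3 gave 9.73, 10.9 and 18.4 in wild-type and 38.5, 51.4 and 61.5 in L2-fKO ovaries. These low counts again did not overlap, and the log2 fold change 1.90 ± 0.34 (SE, limma adjusted p = 0.0428) lost the call without any 1 of the 6 libraries (limma adjusted p from 0.0694 to 0.186).

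By role, the oligoadenylate synthetases had the highest ovary median with 3 or more members, 1.16 on the log2 scale, and 4 of the 5 had all L2-fKO libraries above the wild type. Oas1a gave 19.5, 10.03 and 16.5 in wild-type and 22.4, 50.4 and 46.7 in L2-fKO ovaries, and Oasl1 was the exception with 58.4, 76.9 and 58.7 and 67.1, 87.3 and 38.7. The Oasl1 values overlapped in the ovary, unlike in the spleen. Usp18 gave 23.1, 30.9 and 39.5 in wild-type and 51.9, 65.8 and 58.1 in L2-fKO ovaries, and Ifit1 gave 58.4, 44.3 and 30.3 and 87.6, 123 and 76.3. Rsad2 gave 47.5, 25.1 and 68.8 in wild-type and 114, 95.6 and 104 in L2-fKO ovaries. In all 3 genes the L2-fKO libraries were the higher ones, with log2 fold changes of 0.91, 1.11 and 1.24 that did not pass the test (limma adjusted p = 0.157, 0.14 and 0.148). Iigp1, the gene that rose in the spleen, gave 112, 138 and 178 in wild-type and 446, 377 and 231 in L2-fKO ovaries, also without overlap (log2 fold change 1.27 ± 0.28 (SE, limma adjusted p = 0.079)). Sp100 gave 176, 165 and 157 and 336, 275 and 254 (log2 fold change 0.78 ± 0.15 (SE, limma adjusted p = 0.0596)).

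Other members overlapped between genotypes in the ovary. Cmpk2, which fell in the spleen, gave 523, 434 and 476 in wild-type and 485, 505 and 453 in L2-fKO ovaries (log2 fold change 0.01 ± 0.11 (SE, limma adjusted p = 0.967)). Adar gave 2201, 2115 and 2265 in wild-type and 2176, 2357 and 2390.2 in L2-fKO ovaries, with a log2 fold change of 0.07. Ifit2 gave 624, 595 and 644 and 695, 509.6 and 588, and Dhx58 gave 45.02, 44.3 and 51.4 and 43.8, 59.6 and 55.8. The genotypes overlapped in all 4 genes. None of the groups of Parp9, Dtx3l and Parp14, of Stat2 and Ifi35, of Eif2ak2 and Adar, or of the Schlafen and SAMD9 family had a member without overlap, whereas 6 of the 7 other interferon-induced proteins did.

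**Figure D3:**
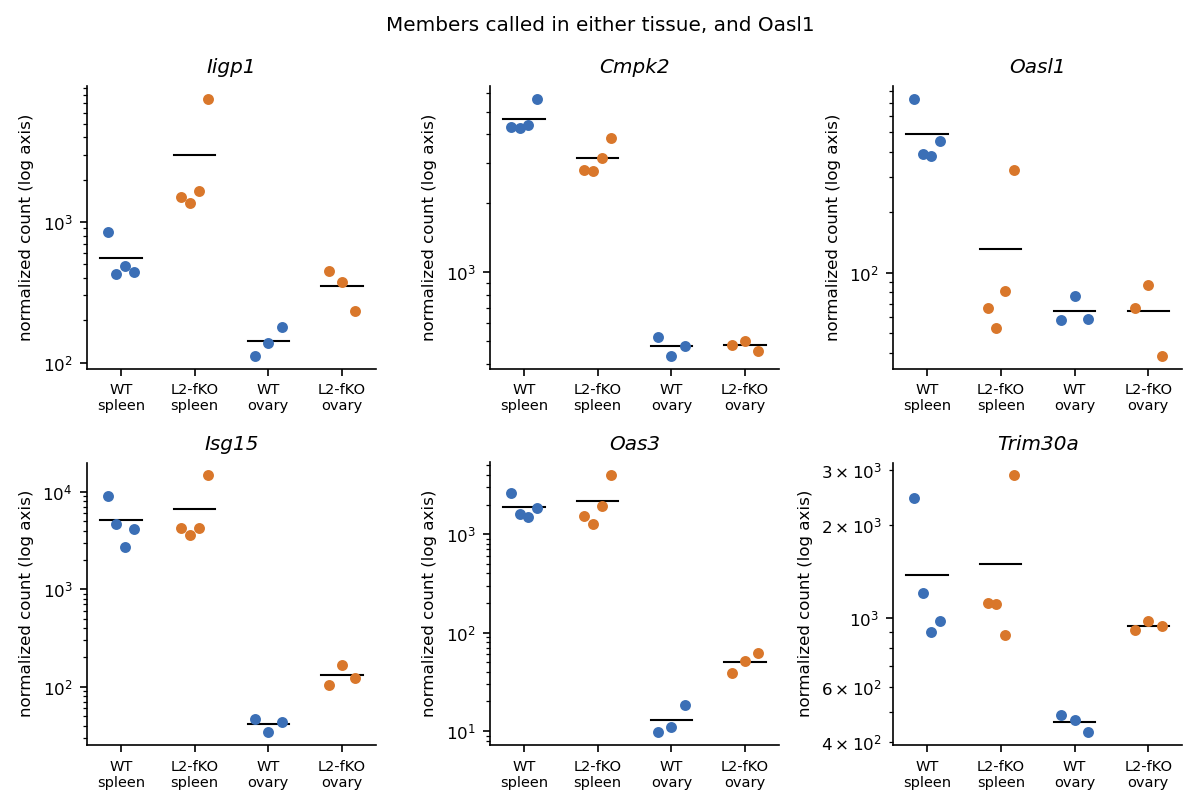
Normalized counts on a log axis in each library of the 4 groups, blue for wild type and orange for L2-fKO, with a black line at the mean, for the members called in either tissue and Oasl1. Spleen and ovary were normalized separately, so levels are comparable within a tissue only; the wild-type and L2-fKO points of Isg15, Oas3 and Trim30a overlap in the spleen and not in the ovary.

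Some cell markers differed between genotypes in the ovary too. The 9 macrophage markers summed to 2991 to 3579 in wild-type and 4021 to 5392 in L2-fKO ovaries; 7 of the 9 had no overlap, all higher, and 0 passed the test (limma). Of 7 T cell markers 4 are in the ovary table, summing to 299.98 to 488 and 556 to 589, and Cd4 rose (log2 fold change 2.12 ± 0.23 (SE, limma adjusted p = 0.00933)). Only 1 of 6 NK cell markers is in the table, at 6.42 to 10.9 and 4.11 to 24.1. Of 6 markers of splenic stroma and endothelium 4 are in the ovary table, and 2 rose (limma), against 1.23% of all genes. No overlap was seen in 3 of the 4, all higher, while their sums overlapped, at 74530 to 81841 in wild-type and 73448 to 99607 in L2-fKO ovaries. The 5 listed markers of conventional dendritic cells summed to 3193 to 3598 and 3617 to 4511, and 0 passed the test (limma). L2-fKO ovary 2 stood apart in granulosa and theca markers, whose sum was 45510.1 against 92012 to 92834 in the other L2-fKO and 86502 to 107988 in wild-type ovaries. Without that library 2 members were called, Trim30a and Isg15, both higher, against 1.54% of all genes that rose. The members' median was then 0.35. The part of these cells in the result was not tested.

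The genotype effect in the ovary was then set against that in the spleen for the 45 members in both tables. The difference passed the test for 1 member, Oas3, at 1.81 ± 0.48 (SE, limma adjusted p = 0.0363), against 3.19% of the 15306 genes tested that were more positive in the ovary and 3.19% more negative. It was lost without L2-fKO spleen 3, from the animal with an ovary library too (limma adjusted p = 0.0514), and 0 members were called with a pseudocount of 5 or with edgeR. The median difference of the members was 0.37 on the log2 scale and that of all genes -0.01. Without L2-fKO spleen 4, a setting chosen after seeing the data, 14 members were more positive in the ovary and none more negative, against 5.79% and 7.24% of all genes. The 14 were Oasl1, Oas1a, Ifit1, Oas2, Oas3, Usp18, Isg15, Xaf1, Rtp4, Sp100, Rsad2, Trim30a, Ifitm3 and Cmpk2. Among them Oasl1 had a difference of 2.74 ± 0.42 (SE, limma adjusted p = 0.00131) and Ifit1 of 2.29 ± 0.46 (SE, limma adjusted p = 0.00634).

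**Figure D4:**
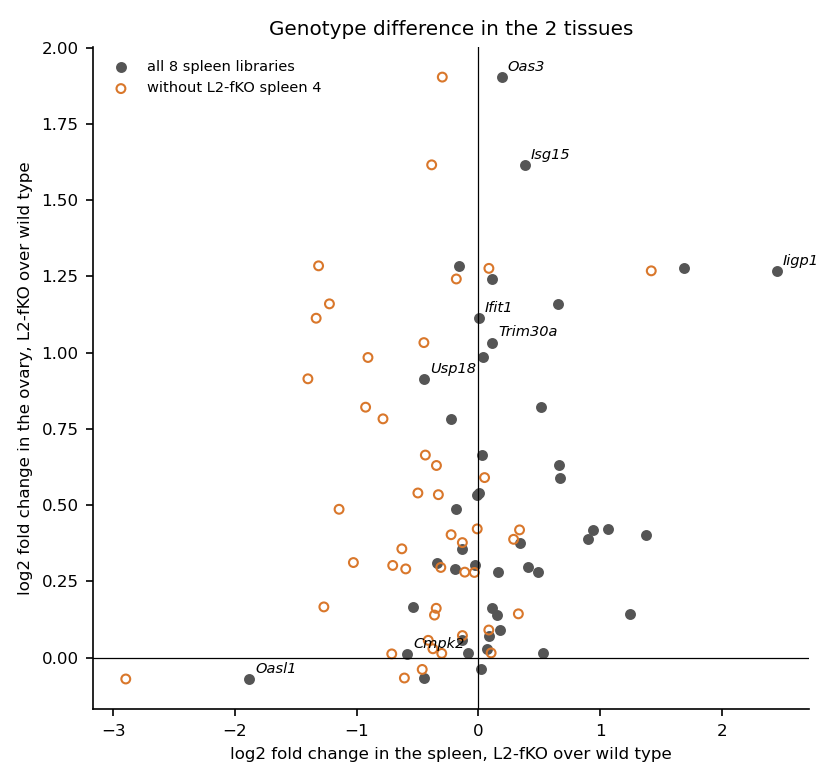
Each of the 45 genes is placed by its log2 fold change in the spleen (x) and in the ovary (y), with grey points for all 8 spleens and open orange points without L2-fKO spleen 4. In the ovary 42 genes are above 0, whereas the spleen median moves from 0.10 to -0.38 when that library is left out.

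Upstream of these genes, interferon transcripts were scarce. Of 21 interferon genes in the spleen count table, 9 had 0 counts in every library, Ifnb1 among them, which allows up to 3 counts per library or 0.0664 to 0.0767 CPM. No other interferon gene but Ifng exceeded 3 counts, and Ifng gave 13.9, 11.3, 5.8 and 13.3 in wild-type and 8.48, 4.51, 6.66 and 27.5 in L2-fKO spleens, the highest being L2-fKO spleen 4. The ovary table lists none of the 21. It holds only 18603 genes, and the lowest total of a listed gene over the 6 libraries was 61 recovered reads. An unlisted gene may thus have held some reads in the ovary. Of the 6 receptor subunits only Ifnlr1, the ligand-binding chain for type III interferon, passed the test, at 77.9, 95.3, 133 and 91.8 in wild-type and 39.2, 34.95, 42.1 and 41.7 in L2-fKO spleens (log2 fold change -1.35 ± 0.23 (SE, edgeR adjusted p = 0.00462)). None of 9 kinases and transcription factors passed the test in either tissue with all libraries. Without L2-fKO spleen 4, Irf7, a transcription factor that amplifies type I responses, fell in the spleen (log2 fold change -1.03, edgeR adjusted p = 0.0249). In the ovary it had a log2 fold change of 0.84 without overlap (limma adjusted p = 0.121). None of 17 tested sensors and adaptors upstream of interferon passed in either tissue with all libraries. Without L2-fKO spleen 4, the receptor subunit gene Ifngr1 and the kinase gene Ikbke fell in the spleen too, by 0.58 and 0.53 on the log2 scale (edgeR adjusted p = 0.00811 and 0.0418). The calls of Irf7, Ifngr1 and Ikbke are descriptive, since the library left out was picked for its high interferon-stimulated genes.

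Of 6 negative regulators in the spleen, Socs3, a feedback inhibitor of JAK signalling, rose from 641, 668, 588 and 461 in wild-type to 3454, 3103, 3679.5 and 2573 in L2-fKO spleens (log2 fold change 2.42 ± 0.15 (SE, edgeR adjusted p = 1.86e-05)). Pias1, a SUMO ligase, fell from 2765, 2820.2, 2570.2 and 2816 to 2083, 2139.9, 2457 and 1816 (log2 fold change -0.39 ± 0.10 (SE, edgeR adjusted p = 0.0334)). Neither gene overlapped between genotypes, and neither passed the test in the ovary. Among 57 further interferon-induced genes tested in the spleen, Slfn9 and Ifitm1 rose and Apobec3 fell. Slfn9 gave 652, 727, 1223 and 726 in wild-type and 2191, 2816, 2948 and 1617 in L2-fKO spleens (log2 fold change 1.496 ± 0.24 (SE, edgeR adjusted p = 0.00412)), and may share reads with Slfn8. Ifitm1 had log2 fold change 0.82 ± 0.15 (SE, edgeR adjusted p = 0.007) and Apobec3 had log2 fold change -0.57 ± 0.12 (SE, edgeR adjusted p = 0.0131). These 3 genes, Socs3, Pias1 and Ifnlr1 also passed without L2-fKO spleen 4 (edgeR adjusted p from 3.58e-05 to 0.038). Without that library 2 of the 57 further genes rose and 10 fell, the synthetase genes Oas1b and Oas1c among them. In that fit 9.02% of all genes rose and 9.16% fell, and the median of the further genes was -0.38. That library was picked for its high interferon-stimulated genes, so these calls are descriptive and no independent test. Among 50 such genes tested in the ovary, Ifi203 and Lgals3bp rose and Parp12 fell. Ifi203 gave 163, 144 and 115 in wild-type and 399, 321 and 321 in L2-fKO ovaries (log2 fold change 1.30 ± 0.18 (SE, limma adjusted p = 0.0199)). Lgals3bp had log2 fold change 0.88 ± 0.15 (SE, limma adjusted p = 0.0401) and Parp12 had log2 fold change -0.55 ± 0.08 (SE, limma adjusted p = 0.0227). The medians of these lists, 0.16 in the spleen and 0.21 in the ovary, stood beside -0.02 and 0.00 over all genes.

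Per length, the levels of the members differed between tissues in their order. In wild-type spleens the highest levels, as CPM per kilobase of exon, were those of Isg15 (158), Ifitm3 (154) and Rsad2 (117). In wild-type ovaries they were those of Bst2, a membrane tether of virions (139), Ifitm3 (41.8) and Gbp2 (12.0). The levels of Isg15 and Ifitm3 in the spleen differed by less than the spread between libraries.

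The 3′UTRs were read for the 7-base AU-rich element bound by ZFP36L2, since the deletion removes that protein. All 46 members had an annotated 3′UTR (GENCODE, GRCm38), with a median of 1238 bases, and 9 (19.6%) held TATTTAT, against 29.5% of the 14227 genes tested in the spleen with a 3′UTR. ATTTA stood in 33 (71.7%) against 69.9%; each TATTTAT contains an ATTTA. Only the strand of the mRNA was searched. Eif2ak2 and Slfn5 held 2 sites each, and Ifi44, Ifih1, Mx1 and Sp100 also held the element, with sites not printed here. The sites of Oas3, which rose in the ovary, and of Ifit1 and Usp18 are shown with the element in capitals.
Oas3, base 96 of the 3′UTR: tgtgtgtgttgTATTTATctgtatgtgtg
Ifit1, base 565 of the 3′UTR: acttctttcaaTATTTATatgctaaaagt
Usp18, base 105 of the 3′UTR: caattaagcccTATTTATaagcaaaacta
In the spleen the median log2 fold change was 0.00 for the 9 members with the element and 0.11 for the 37 without, and -0.30 and -0.38 without L2-fKO spleen 4. In the ovary the median was 0.85 for 8 members with the element and 0.38 for 37 without. Among the 8 the log2 fold change was 0.01 in Eif2ak2, 0.28 in Slfn5 and Ifih1, 0.78 in Sp100 and 0.91 in Usp18. It was 1.11 in Ifit1, 1.28 in Ifi44 and 1.90 in Oas3. The part of the element in these values was not tested.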

How the data were processed

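Poly(A) RNA was prepared with the NEBNext Ultra II kit. Per the labels' processing notes and the study's methods, the authors trimmed reads with Trimmomatic 0.36, aligned them to GRCm38 with STAR 2.5.2b and counted unique exonic reads by strand with featureCounts of Subread 1.5.2, so reads shared by near-identical genes were not counted. The deposited spleen values are raw counts per gene. For the ovary the deposited values are signal, that is read counts divided by 1 size factor per library, and 100.0% of them came out as whole reads within 0.001 of a read once that factor was recovered. The authors' columns of fold changes and p-values were not used.

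Spleen counts were tested with edgeR 4.0.16 (TMM, quasi-likelihood test) over 16911 genes with at least 10 counts in 4 libraries. Ovary values were tested with limma 3.58.1 on log2(value + 1), over 18504 genes with at least 10 in 3 libraries, which understates the change of low genes. The difference between tissues was tested with limma over 15306 genes in both, each normalized separately. Adjusted p is Benjamini-Hochberg over all genes tested, with a limit of 0.05. DESeq2 1.42.0 was an alternative; R was 4.3.3. Tests were checked on simulated data. Each library is 1 animal, from its label. Replicate libraries differed by far more than sampling noise.

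The members and gene lists were chosen with earlier results of these data known. Named with values in every spleen library are members past the limit in the test of the spleen, the ovary or their difference with all libraries, the member of each role group with the highest mean normalized spleen count (not corrected for length), and members called in the spleen without L2-fKO spleen 4, the last chosen after their values were seen. Members called under other settings only are counted or named without these values. The limit that a count of 0 allows covers counting error only. Wild-type spleen 4 is a name given here, since 2 wild-type spleens have number 3 in their titles.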

Additional observations from a re-analysis of the deposited data

Results flagged for a closer look

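In the spleen groups of 4, libraries were marked as far from the rest of their group by the gap to the nearest other library. A library was marked when that gap took up more of the group's whole range than Dixon's test allows at the 95% level. Chance marks about 1 group in 20, counting any library at either end. The shares here count 1 named library at the high end only, which chance marks less often than that. L2-fKO spleen 4 was marked as the high library for 37 of the 46 members, against 4.16% of all genes tested. Among the members named with their values, the gap as a share of the range was that of Ifit1 (0.973), Isg15 (0.939), Usp18 (0.904), Oas1a (0.951), Oasl1 (0.896), Dhx58 (0.94), Adar (0.894), Mx1 (0.908), Iigp1 (0.953), Irgm1 (0.92), Ifi47 (0.955), Rsad2 (0.85), Parp9 (0.889), Ifitm3 (0.959), Samd9l (0.838), Trim30a (0.882) and Sp100 (0.925). Wild-type spleen 1 was marked as the high library of the wild-type group for 8 of 46 members, against 1.99% of all genes, including Dhx58 (0.845), Iigp1 (0.855) and Parp9 (0.918). For Cmpk2 the marked library was wild-type spleen 4 (0.898), which was above the other wild-type libraries. The part of any 1 cell type or technical step in these libraries was not tested.

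Oas3 was the 1 member whose genotype effect differed between tissues by the test of the difference itself, 1 of 45 members where 3.19% of all genes passed in that direction. The effect in the ovary exceeded that in the spleen by 1.81 on the log2 scale (limma adjusted p = 0.0363), with all 3 L2-fKO ovaries above all 3 wild-type ovaries and overlapping genotypes in the spleen. No member was called with a pseudocount of 5, with edgeR on counts and recovered reads or without L2-fKO spleen 3 (3.24%, 3.49% and 3.04% of all genes).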

How the results depend on the processing

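Counts of members past the limit were small and moved with the settings, and the cause was not tested. Shares of all genes called the same way follow each count in brackets. In the spleen (1 higher, 1 lower), DESeq2 gave 0 (9.99%) and 2 (9.52%), with no adjusted p for 8 of 46 members, Iigp1 among them; RLE size factors gave 1 (7.08%) and 2 (6.46%); every gene with at least 1 count gave 3 (3.68%) and 2 (3.22%); sex as a covariate gave 0 higher (6.56%); males alone gave 0 (8.23%) and 0 (6.71%), with a median log2 fold change of 0.55. Leaving out 1 spleen library gave 0 to 1 higher (3.26% to 9.02%) and 0 to 8 lower (3.35% to 9.16%). The median then ran from -0.38 (without L2-fKO spleen 4) to 0.37 (without wild-type spleen 1). In the ovary (3 higher), DESeq2 on recovered reads gave 14 (4.38%). Leaving out 1 ovary library gave 1 to 2 higher (0.162% to 1.54%), 0 lower (0.0215% to 0.745%) and a median from 0.35 to 0.48. For the difference between tissues (1 more positive in the ovary), pseudocount 5 gave 0 (3.24%), edgeR on counts and recovered reads gave 0 (3.49%) and females alone gave 3 (3.48%). Only L2-fKO spleens 3 and 4 were left out of that test, 1 at a time. The count was 0 (3.04%) without L2-fKO spleen 3 and 14 (5.79%) without L2-fKO spleen 4, and the median ran from 0.29 to 0.74. No alternative gave a member lower in the ovary.

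Replicate numbers are shared between groups. Deviations of same-numbered libraries correlated at -0.14, 0.09, 0.18 and -0.29 in the spleen and 0.38, 0.21 and 0.07 in the ovary. Each L2-fKO ovary correlated best with the wild-type ovary of its number, although wild-type ovary 3 correlated best with L2-fKO ovary 2 (0.18). L2-fKO spleens 1, 2 and 4 each correlated better with a wild-type spleen of another number. These correlations are too few to show whether same-numbered animals were paired. The number of wild-type spleen 4 was given here because the titles repeat number 3. A replicate block gave 0 higher (3.96%) and 2 lower (3.42%) in the spleen, and 4 higher (2.22%) in the ovary.

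Small fold changes turned sign. Ifit1 in the spleen, 0.00, was -0.0077 with DESeq2, -0.0034 with RLE factors, -0.0015 with every gene, -0.15 with sex and -0.58 with the replicate block. In males alone Dhx58 was 0.18, Ifi47 0.20, Oas1a 0.31 and Usp18 0.0589. Leaving out 1 library in the spleen gave Ifi47 -0.70 to 0.18, Oas1a -1.31 to 0.11, Usp18 -1.40 to 0.0169, Ifit1 -1.33 to 0.42, Trim30a -0.45 to 0.55, Isg15 -0.38 to 0.82 and Oas3 -0.30 to 0.40, and in the ovary Cmpk2 -0.0553 to 0.0798, Oasl1 -0.32 to 0.25 and Ifit2 -0.18 to 0.0417. Precision was limited by 3 or 4 animals a group and, in the spleen, by the members' spread, a median of 2.28 times between the highest and lowest wild-type library against 1.46 times over all genes.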
